A study of Mus musculus with 8 samples.

Results

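The input DNA of 4 embryonic stem (ES) cell lines was examined for chromosomes and stretches of chromosome whose hybridisation signal stood above that of mouse tissue. The ES samples are aid-/-, wild type, mbd4-/- and a Gadd45a knockdown, and they are 4 of 8 samples in the series. The other 4 are liver and spleen of aid-/- mice and liver and spleen of mbd4-/- mice, strain C57BL6/J, aged 6 months. Each sample is 1 array and each group is 1 sample, so a single ES array set against the tissues has no replicate check. The labels give no strain, sex, passage or clone for the ES cells and no number of animals for the tissues. No liver or spleen of wild-type mice was analysed here, so every tissue sample carries one of the same 2 deletions as the mutant ES cells. The ES cells with the Gadd45a knockdown have no control of their own besides the wild-type ES line, and how the knockdown was made is not given.

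The series used mDIP, in which sonicated and denatured genomic DNA is precipitated with an antibody against 5-methylcytidine. Part of the DNA was kept back before precipitation. This input carried the dye Cy3 on a 2-colour array of mouse CpG islands, and the precipitated DNA carried Cy5. The input has not been selected for methylation, so its signal on a probe follows the amount of that DNA in the sample and how well the probe hybridises. Of 88737 probes, the 85771 on chromosomes 1 to 19 were used on every array. Each probe's log2 input signal was corrected for the probe's own GC content, centred on the array's autosomal median, and set against the mean of the 4 liver and spleen arrays. This value is called the input difference below. It was averaged over each chromosome and over windows of 50 neighbouring probes, 1716 windows with a median length of 0.77 Mb. A chromosome was called at 0.15 or more and a window at 0.25 or more, on the log2 scale. An input difference is relative to the rest of the same array, and its size cannot tell an extra copy in part of the cells from one in all of them.

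As background, mouse ES cells divide quickly and for many passages, and cultured lines are known to acquire extra whole chromosomes. Trisomy of chromosome 8 is the best known of these, and cells that carry it can outgrow their diploid neighbours and pass poorly through the germ line. Mbd4 is a thymine glycosylase that binds methylated CpG, and Gadd45a is a small nuclear protein induced by DNA damage. Both have been studied as parts of pathways that remove DNA methylation.

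The targeted genes were read first, since DNA from a deleted stretch should be missing from the input. Mbd4 had 2 probes (mm9 chromosome 6, 115803699 to 115803885), and their mean input difference was 0.84 ± 0.73 (SD over probes) in ES mbd4-/-, against 0.02 ± 0.04 in ES wild type. It was 0.42 in mbd4-/- liver and 0.11 in mbd4-/- spleen, against −0.16 in aid-/- liver and −0.36 in aid-/- spleen. No mbd4-/- sample was low there. In other array files the neighbouring probes carry the name Mbd4, and over all 7 probes named Mbd4 or Ift122 the mean was 0.79 in ES mbd4-/- and 0.10 in ES wild type. Gadd45a had 7 probes, with a mean of −0.22 in the knockdown, against −0.28 in wild type. A knockdown acts on RNA and leaves the gene in place, and a probe outside the deleted part of a gene checks nothing, so the genotypes were not checked by these values.

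Facts that touch every result are these. Between 94.0% and 99.8% of input probes were well above background on each array, and the median background-subtracted input signal was 87.6 to 235. Windows were noisier on some arrays than on others. Outside the called chromosomes the SD over windows was 0.08 in ES aid-/-, 0.12 in ES wild type, 0.15 in ES mbd4-/- and 0.17 in the knockdown, against 0.06 to 0.07 on the tissue arrays. ES aid-/-, ES wild type and both aid-/- tissues were scanned on scan day 1, both mbd4-/- tissues on day 2, ES mbd4-/- on day 3 and the knockdown on day 4. With each tissue array set against the other 3, no chromosome was called in 76 comparisons (0%), and all values lay between −0.05 and 0.05. In the same comparison 9 windows of 6864 (0.131%) were higher by 0.25 and 8 (0.117%) were lower.

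Chromosomes were called higher in 3 of the 4 ES arrays. They were chromosomes 1, 8 and 19 in ES aid-/- (15.8% of 19). In ES wild type they were chromosomes 1, 8 and 11 (15.8%), and in the knockdown chromosomes 8 and 14 (10.5%). On chromosome 14 only the distal windows were high, as described below, and the call was lost under normexp background, the median over probes, the mbd4-/- reference, thresholds of 0.2 and 0.3, and against the array median. In ES mbd4-/- no chromosome was called (0%), and its values ran from −0.09 on chromosome 13 to 0.08 on chromosome 11. The chromosomes called higher held 14.9% of the probes in ES aid-/-, 20.1% in ES wild type and 9.3% in the knockdown.

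Chromosome 8, which carries 4980 probes, was the chromosome called in the most ES arrays. Its input difference was 0.34 in ES aid-/-, 0.32 in ES wild type, −0.05 in ES mbd4-/- and 0.42 in the knockdown. Single tissue arrays against the other 3 lay at −0.02 to 0.02. Relative to the array's own median chromosome, the fold was 1.33 in ES aid-/-, 1.31 in ES wild type and 1.30 in the knockdown, against 0.99 in ES mbd4-/-. The 3 ES arrays with a high chromosome 8 thus had almost the same height once each array's zero was set by its own chromosomes. All 100 windows of chromosome 8 lay above 0 in ES aid-/- and in ES wild type, and 99 did in the knockdown. At the 0.25 threshold, 82, 74 and 83 windows of the 100 passed in these 3 arrays in that order.

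Chromosome 1 (4752 probes) stood at 0.33 in ES aid-/- and 0.29 in ES wild type, and at −0.08 in ES mbd4-/- and −0.04 in the knockdown. All 95 of its windows were above 0 in each of the first 2 arrays, and 75 and 59 of them passed 0.25. The fold over the array's median chromosome was 1.32 in ES aid-/- and 1.28 in ES wild type.

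Chromosomes 19 and 11 separated the 2 lines that shared chromosomes 1 and 8. Chromosome 19 was 0.33 in ES aid-/- (fold 1.32), against −0.07 in ES wild type, −0.01 in ES mbd4-/- and 0.05 in the knockdown. All 61 windows were above 0 in ES aid-/-. Chromosome 11, the autosome with the most probes at 7493, was 0.38 in ES wild type (fold 1.36), against −0.05 in ES aid-/-, while ES mbd4-/- was at 0.08 and the knockdown at 0.10. All 150 windows were above 0 in ES wild type and 134 passed 0.25. Each array set against the mean of the other 3 ES arrays, without any tissue, gave 0.34 for chromosome 19 in ES aid-/- and 0.33 for chromosome 11 in ES wild type. Those comparisons share arrays and are given side by side only.

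The whole length of these chromosomes stood high, with some slope. Each chromosome was cut into 3 parts of nearly equal window number. The first, middle and last parts of chromosome 1 stood at 0.33, 0.34 and 0.31 in ES aid-/-, those of chromosome 8 at 0.31, 0.33 and 0.38, and those of chromosome 19 at 0.39, 0.27 and 0.32. In ES wild type the parts of chromosome 1 stood at 0.27, 0.31 and 0.29, those of chromosome 8 at 0.28, 0.31 and 0.37, and those of chromosome 11 at 0.33, 0.39 and 0.41. The SD over windows within a called chromosome was 0.09 to 0.11 in both arrays. The spread was thus of the same order as on their other chromosomes, 0.08 and 0.12, while the mean was raised along the whole length.

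**Figure D1:**
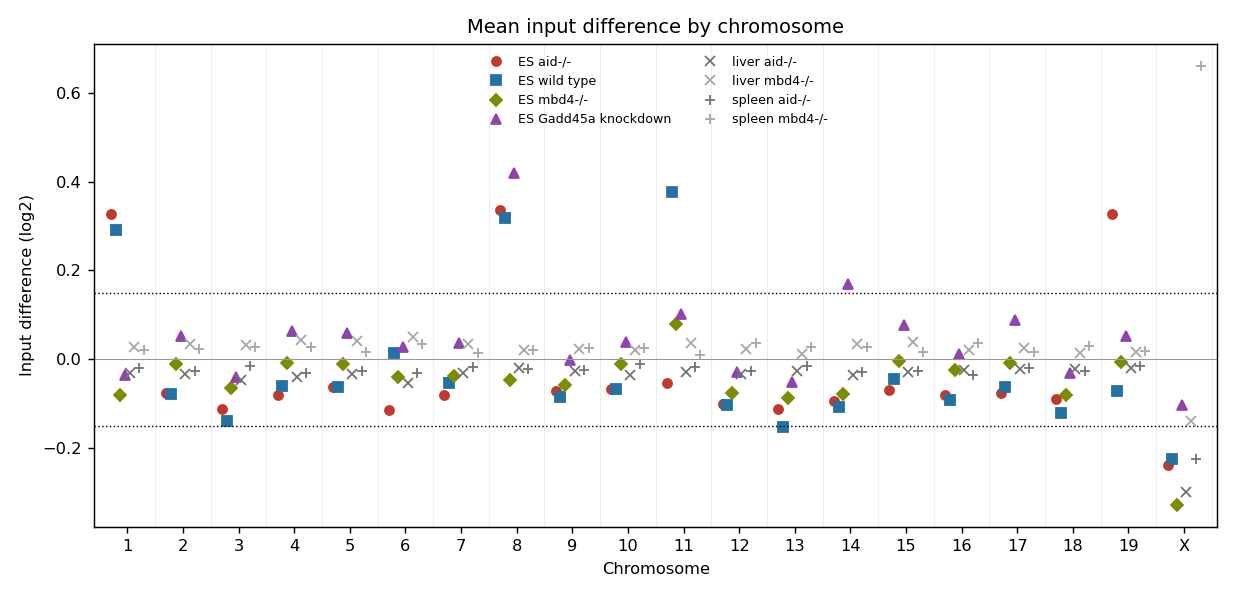
Mean input difference (log2, input signal of 1 array against the mean of the 4 liver and spleen arrays) for each of chromosomes 1 to 19 and X, by ES array and, for comparison, by tissue array against the other 3. Dotted lines mark 0.15 in both directions. Chromosomes 1, 8 and 19 stand at about 0.33 in ES aid-/-, chromosomes 1, 8 and 11 at 0.29 to 0.38 in ES wild type, and chromosome 8 at 0.42 in the knockdown. Tissue arrays stay between −0.05 and 0.05 on chromosomes 1 to 19 and run from −0.30 to 0.66 on X, with spleen of the mbd4-/- mouse the highest.

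The same chromosomes were called when only arrays scanned on the same day were compared. Against the 2 aid-/- tissue arrays of scan day 1, ES aid-/- gave 0.34, 0.35 and 0.34 for chromosomes 1, 8 and 19, and ES wild type gave 0.31, 0.34 and 0.40 for chromosomes 1, 8 and 11. ES mbd4-/- and the knockdown were each alone on a scan day and have no such value. As arithmetic, 3 copies against 2 are a log2 ratio of 0.59 and 2 against 1 of 1. The chromosomes called higher in ES aid-/- stood at 0.40 to 0.41 over their array's median chromosome and those in ES wild type at 0.36 to 0.44. How an array's response or the share of cells with an extra copy enters these heights was not tested.

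The X chromosome gives a value from the same arrays. It has 2468 probes, and spleen of the mbd4-/- mouse stood at 0.02, against −0.58 to −0.69 in the other 3 tissue samples, a gap of 0.66 that was seen in 49 of 49 windows. The labels give no sex. Among the ES arrays the X chromosome was at −0.71 in aid-/-, −0.69 in wild type, −0.80 in mbd4-/- and −0.57 in the knockdown. All 4 were thus near the 3 low tissue samples, and the ES value minus the mean of those 3 ran from −0.16 to 0.06.

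Chromosome 13 of ES wild type was the only one called lower (5.26% of 19), at −0.15, with chromosome 3 just outside the threshold at −0.14. Against the array's own median chromosome it stood at −0.09. It was no longer called under most of the other settings tried. At the other end, the knockdown's chromosome 14 at 0.17 was the value nearest inside the upper threshold and its chromosome 11 at 0.10 the nearest outside.

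The 4 ES arrays were also tested as a group against the 4 tissue arrays, although their calls differ. Arrays of different genotype, and of different tissue, stand in as replicates here, and the input values are those behind the calls above. In an exact permutation test over the 70 splits of 4 against 4, two-sided, 0 of 19 chromosomes passed an adjusted p of 0.05 (0%). The smallest p this design allows is 0.0286, and chromosomes 3, 12, 13 and 18 reached it (adjusted p = 0.136). On those 4 the ES mean was lower, by −0.08 to −0.10. Chromosome 8 averaged 0.24 ± 0.21 in ES cells against −0.02 ± 0.02 in tissues (SD, n = 4 each, centred log2 input), with an exact p of 0.143 (adjusted p = 0.388). Chromosomes 1 and 11 had exact p-values of 0.429 and 0.171. The SD among the ES lines on chromosome 8 was 0.21 against 0.02 among the tissues, and the lines are therefore described one by one.

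By window, limma called 12 windows higher in ES cells (0.699% of 1716) and 62 lower (3.61%) at an adjusted p of 0.05. With scan day as a block, which compares ES and tissue arrays within day 1 alone, limma called 178 higher and 93 lower. Of the 12 higher windows without the block, 9 lay on chromosome 8 and 3 on chromosome 1, with differences of 0.29 to 0.48. These are the same input values that gave the chromosome calls, so the windows are no separate support for them. The 62 lower windows, at −0.45 to −0.18, were long, with a median of 3.65 Mb against 0.77 Mb for all windows. The lowest adjusted p, 0.0174, was shared by a window on chromosome 3 (38384123 to 40549416, from Fat4 to Hspa4l) and one on chromosome 10 (98570375 to 102830300, from Galnt4 to Slc6a15). Without any one of the tissue arrays, 0 windows passed limma's adjusted threshold in either direction (97 to 128 higher and 200 to 237 lower at an unadjusted p of 0.05). Without ES wild type 0 higher and 1 lower passed (146 and 255 unadjusted), without ES aid-/- 51 and 116, and without ES mbd4-/- 110 and 80. These counts thus fell or rose with the array left out. Each removal also leaves fewer arrays in the fit, and how much of the change comes from that was not tested.

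Windows that are long, where CpG islands lie far apart, stood low in all 4 ES arrays. In the longest 10% of the windows outside called chromosomes, the median lay below that of the array by 0.07 in ES aid-/-, 0.14 in ES wild type, 0.11 in ES mbd4-/- and 0.13 in the knockdown, against −0.01 to 0.01 on the tissue arrays. In the shortest 10% it lay above by 0.04, 0.09, 0.07 and 0.11 in the same order of ES arrays, against −0.04 to 0.02 in tissues. Probe GC had been corrected for, and the part of window length in the lower calls was not tested further.

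Along the chromosomes, 206 windows of ES aid-/- passed 0.25 upward (12%), 282 of ES wild type (16.4%), 49 of ES mbd4-/- (2.86%) and 245 of the knockdown (14.3%). Downward the counts were 44 (2.56%), 101 (5.89%), 129 (7.52%) and 75 (4.37%). The lower counts depend on the processing. The 44 of ES aid-/- became 69 without aid-/- liver, 27 without mbd4-/- liver and 28 without mbd4-/- spleen. Under normexp background the 4 counts were 2, 4, 6 and 55, and without the GC correction 672, 12, 14 and 8. Outside the called chromosomes 3 of 1460 windows were higher in ES aid-/- and 15 of 1305 in ES wild type. In the noisier arrays 49 of 1716 were higher in ES mbd4-/- and 137 of 1556 in the knockdown. Runs of 3 or more neighbouring windows were then taken as segments. ES aid-/- had 22 higher segments and no lower one, ES wild type 24 higher and 7 lower, ES mbd4-/- 2 higher and 4 lower, and the knockdown 17 higher and no lower one. No tissue array had a segment.

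**Figure D2:**
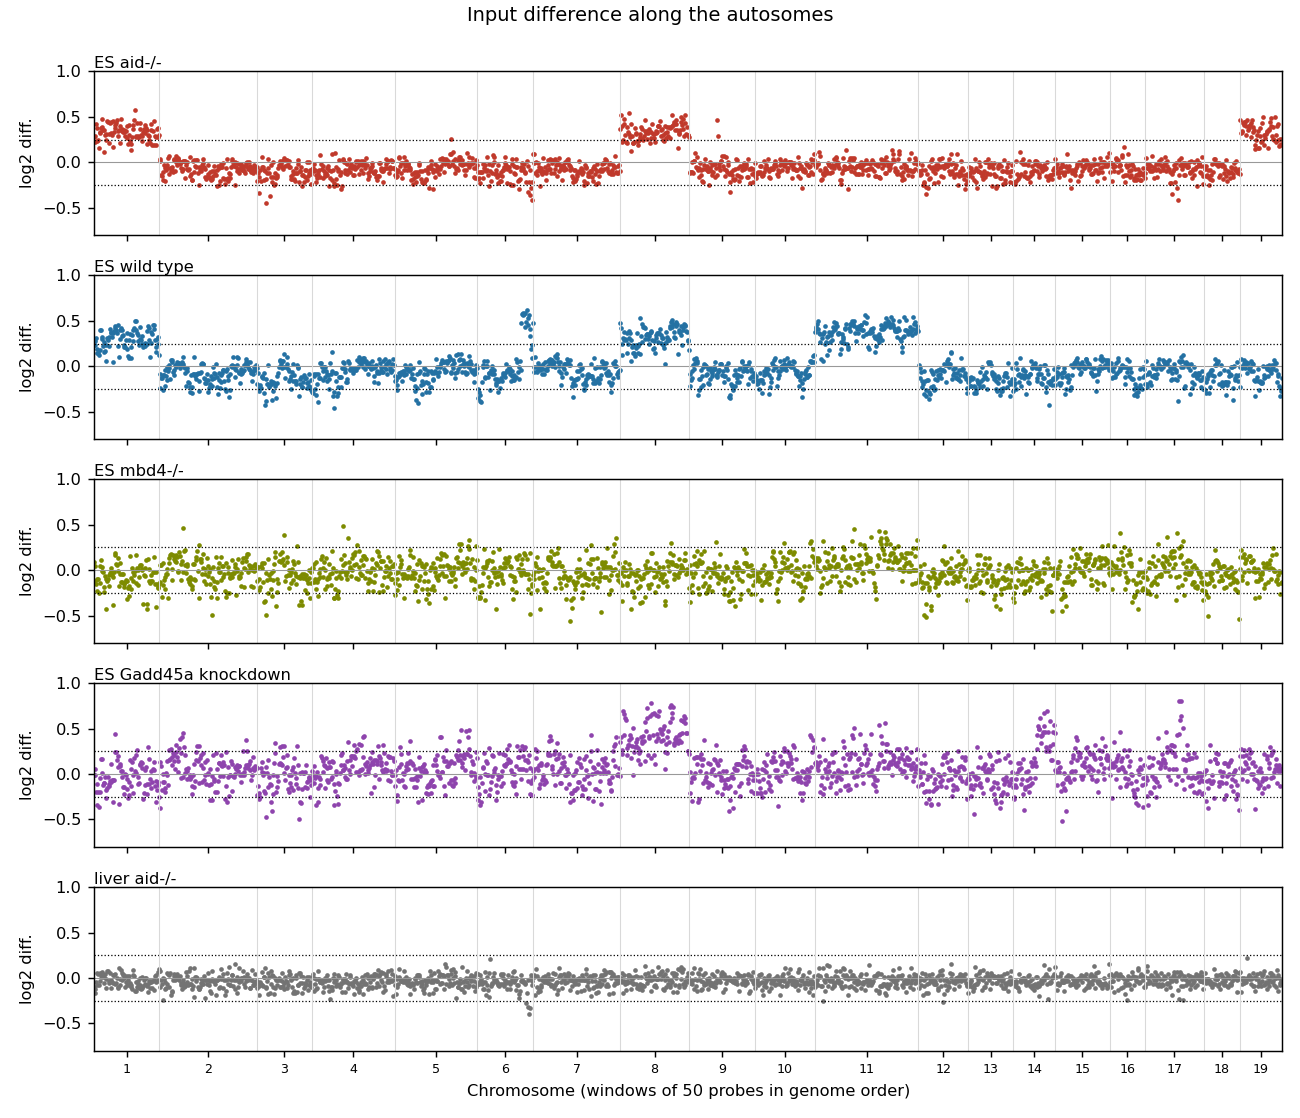
Input difference (log2) of each window of 50 probes in order along chromosomes 1 to 19, for the 4 ES arrays and the aid-/- liver array against the other 3 tissues. Dotted lines mark 0.25 in both directions. Chromosomes 1, 8 and 19 in ES aid-/- and 1, 8 and 11 in ES wild type stand as plateaus, and in ES wild type the end of chromosome 6 and in the knockdown the end of chromosome 14 stand above the rest of the same chromosome.

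Segments are ranked here by their number of windows. In ES aid-/- the one with the most windows was at the start of chromosome 19 (3575127 to 16059063, 12.5 Mb, from Saps3 to Cep78), 21 windows at 0.39 ± 0.06 (SD over windows), against −0.00 in ES wild type, 0.06 in ES mbd4-/- and 0.12 in the knockdown. In ES wild type it was on chromosome 11 (94010450 to 109583143, from Tob1 to BC029169), 36 windows at 0.41. In the knockdown it was the end of chromosome 8 (98331371 to 129588124, from Got2 to Pard3), 30 windows at 0.49. In ES mbd4-/- it was 4 windows on chromosome 11 (97660612 to 98768880, from Lasp1 to Cdc6) at 0.35, where ES wild type was at 0.48 and the knockdown at 0.37. Ranked by length instead, the longest were on chromosome 1 in ES aid-/- (129671055 to 157264258, 27.6 Mb), chromosome 6 in ES wild type (119430660 to 143782057, 24.4 Mb) and chromosome 14 in the knockdown (58694398 to 104872763, 46.2 Mb). The lower segments with the most windows had 4 each. They lay on chromosome 6 (8459244 to 25640275, from Glcci1 to Gpr37, −0.35) and chromosome 13 (75846093 to 93195766, from Ell2 to Ankrd34b, −0.28) in ES wild type, and on chromosome 7 (53653042 to 69522007, from Kcnc1 to Ndn, −0.41) in ES mbd4-/-. The longest lower segment in Mb was 3 windows of chromosome 4 in ES wild type (62875556 to 82151103, 19.3 Mb, −0.36).

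In 2 arrays the higher signal lay on the distal part of a chromosome only. The first was chromosome 6 of ES wild type, where a single split into 2 levels accounted for 80.1% of the variance between windows. The 63 windows before it averaged −0.11 ± 0.11 and the 18 after it 0.46 ± 0.15. The distal stretch (119430660 to 149310056, 29.9 Mb, 882 probes) stood at 0.46, which is 0.52 over the array's median chromosome, and 15 of its 18 windows passed 0.25. The unbroken run of higher windows ended at 143782057, short of the chromosome's last probe. From 143782088 to 148160065 ES wild type averaged only 0.13. ES aid-/- had −0.15 over the same stretch, ES mbd4-/- −0.04 and the knockdown 0.07, against −0.10 to 0.11 on the tissue arrays. Of 117 genes with 3 or more probes in it, 105 stood at 0.25 or more in ES wild type, while ES aid-/- had 2, ES mbd4-/- 33 and the knockdown 39. On the rest of chromosome 6 it was 2 of 374 genes in ES wild type. Over all named genes the share at 0.25 or more was 13.7% in ES aid-/-, 17.8% in ES wild type, 20.4% in ES mbd4-/- and 30.3% in the knockdown. This stretch, like those of chromosomes 14, 17 and 9 below, was delimited by the input differences of the same probes. In the array that set a stretch, the gene count therefore only describes it and is no separate support. The whole chromosome was not called, at 0.02, because the long low part outweighs the end.

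Probe by probe, the level on chromosome 6 changed inside Fbxl14, which encodes an F-box protein of a ubiquitin ligase. Over 200 probes around the step, the 97 before it averaged −0.01 and the 103 after it 0.53. The 2 probes on either side are printed here because they bracket the change, with every CpG in capitals. The first (mm9 chr6:119430223-119430267) had an input difference of −0.17 in ES wild type and the second (chr6:119430388-119430432) of 0.62. Single-probe input differences had an SD of 0.36 on this array, so the pair places the step only roughly.
Fbxl14, last before the step: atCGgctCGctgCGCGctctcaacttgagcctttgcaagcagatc
Fbxl14, first after the step: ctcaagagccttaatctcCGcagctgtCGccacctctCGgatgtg

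The distal part of chromosome 6 is also where the tissue arrays differed among themselves. Both mbd4-/- tissues exceeded both aid-/- tissues by 0.25 or more in 5 of 1716 windows, and all 5 lie on chromosome 6, in none the other way round. One of them (114987629 to 115943927) holds Mbd4 and the others lie between 126889239 and 141198829, with gaps of 0.29 to 0.48. The step in ES wild type was therefore read against each pair. The distal stretch was 0.53 with the aid-/- tissues as reference and 0.38 with the mbd4-/- tissues.

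The second such case was chromosome 14 of the knockdown. Its mean of 0.17 is made up of 33 proximal windows at −0.04 ± 0.14 and 27 distal ones at 0.42 ± 0.15, and 25 of the 27 passed 0.25. The distal stretch (58694398 to 124026289, 65.3 Mb, 1346 probes) was at −0.09 in ES aid-/-, −0.13 in ES wild type and −0.09 in ES mbd4-/-, and at −0.02 to 0.03 on the tissue arrays. Of 152 genes with 3 or more probes there, 100 stood at 0.25 or more in the knockdown, against 3, 2 and 23 in ES aid-/-, wild type and mbd4-/- and 30.3% of all named genes in the knockdown. On the proximal side 42 of 215 genes did in the knockdown.

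Probe by probe, the best split on chromosome 14 fell between 2 probes of Sap18, which encodes a subunit of a Sin3 histone deacetylase complex. The 70 probes before it averaged −0.07 and the 130 after it 0.33. Both probes match the plus strand of the Sap18 promoter in RefSeq (GRCm38), and they are printed because they bracket the step. The first (mm9 chr14:58416930-58416974) was at −0.29 in the knockdown and the second (chr14:58417016-58417061) at 0.67. Single-probe input differences had an SD of 0.78 on this array, and the split by windows fell later, at 58694398, so the step is placed only roughly.
Sap18, last before the step: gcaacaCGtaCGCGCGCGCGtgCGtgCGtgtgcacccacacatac
Sap18, first after the step: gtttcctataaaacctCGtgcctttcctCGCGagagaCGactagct

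No other chromosome of an ES or tissue array had a split that accounted for 50% or more of its variance between windows. The highest share elsewhere was 27.5% in ES aid-/-, 45.5% in ES wild type, 35.1% in ES mbd4-/- and 31.5% in the knockdown, and 15.9% to 20.2% in tissues.

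**Figure D3:**
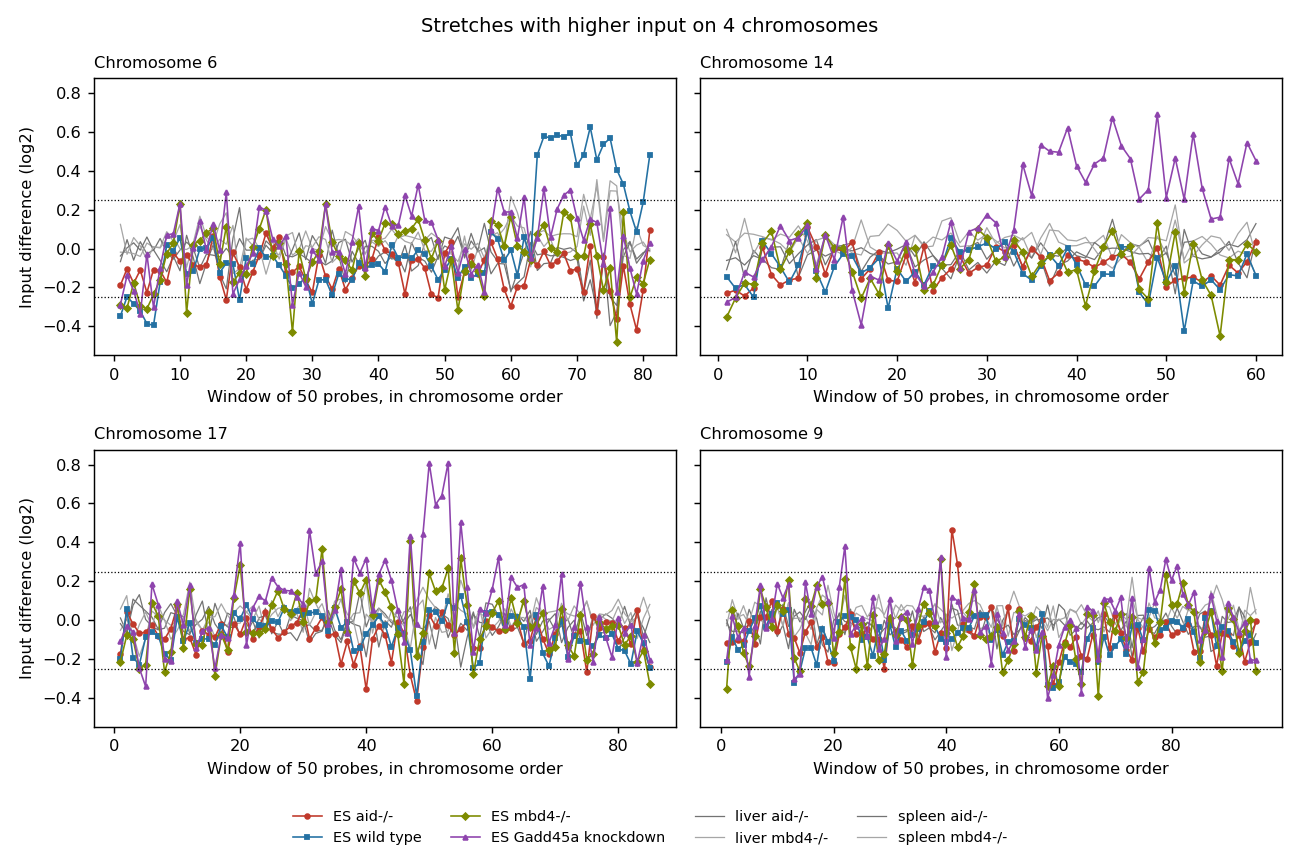
Input difference (log2) of windows of 50 probes along chromosomes 6, 14, 17 and 9 in the 4 ES arrays. ES wild type steps up to 0.46 at the end of chromosome 6 and the knockdown to 0.42 at the end of chromosome 14, 5 windows of chromosome 17 stand at 0.66 in the knockdown, and 2 windows of chromosome 9 stand at 0.38 in ES aid-/-.

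Shorter segments also stood higher inside chromosomes that were not called. In the knockdown they included 3 windows of chromosome 5 (140302926 to 143578246, 0.39), 3 of chromosome 11 (69609167 to 70051532, 0.44) and 4 of chromosome 11 (97660612 to 98768880, 0.37). ES mbd4-/- had 3 windows of chromosome 11 at 0.32 (95866847 to 96650675) and the 4 given above. A pair of stretches, picked after the values were seen, is described further. On chromosome 17 of the knockdown, 5 windows (44242332 to 46848441, 2.61 Mb, 250 probes, from Enpp4 to Pex6) averaged 0.66 ± 0.16, with single windows at 0.44 to 0.81. The windows next to them stood at −0.02 and −0.07, and the one after that (47639225 to 48009535) at 0.51 in the knockdown and 0.32 in ES mbd4-/-. The stretch was at −0.03 in ES aid-/-, 0.02 in ES wild type and 0.15 in ES mbd4-/-, and at −0.04 to 0.09 in tissues. Of its 32 genes with 3 or more probes, 26 stood at 0.25 or more in the knockdown, against 0 in ES aid-/-, 0 in ES wild type and 16 in ES mbd4-/-. The share of all named genes is 30.3% in the knockdown and 20.4% in ES mbd4-/-. Among them, chosen after their values were seen, are Vegfa, which encodes a growth factor for blood vessels, at 0.58 in the knockdown against 0.10 in ES mbd4-/-, and the heat shock protein gene Hsp90ab1 at 0.64 against 0.28. Srf, a transcription factor gene of the cytoskeleton and growth response, stood at 1.17 against 0.51.

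On chromosome 9 of ES aid-/-, 2 windows (61222010 to 62990286, 1.77 Mb, 100 probes, from Tle3 to Lbxcor1) stood at 0.47 and 0.29, with the windows on either side at −0.14 and −0.02. The stretch stood at −0.08 in ES wild type, −0.09 in ES mbd4-/- and 0.11 in the knockdown, and −0.11 to 0.06 in tissues. It is shorter than the 3 windows asked of a segment, and was kept because windows of 25 probes gave 4 neighbouring windows. That rule also gave a lower stretch of ES aid-/- itself on chromosome 6 (143782088 to 148160065, −0.36). In the knockdown it gave higher stretches on chromosomes 2, 5, 7, 10 and 11 and lower ones on chromosomes 3 and 12, and ES wild type had lower stretches on several chromosomes. Of 10 genes with 3 or more probes, 7 stood at 0.25 or more in ES aid-/- (against 13.7% of all named genes), while ES wild type had 0, ES mbd4-/- 1 and the knockdown 1. The 7 include Pias1, a SUMO ligase gene, at 0.61 and Kif23, a kinesin gene of cell division, at 0.49. Tle3 and Lbxcor1 at its ends stood at −0.14 and −0.31.

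The knockdown and ES mbd4-/- had the widest spread between probes. The SD of single-probe input differences was 0.78 and 0.73 there, against 0.44 in ES aid-/- and 0.36 in ES wild type. These are also the 2 arrays written by the older scanner software. Setting the knockdown against ES mbd4-/- directly, chosen after the data were seen, gave an SD of 0.10 over windows on chromosomes other than 8, 14 and 17. In that comparison 172 windows were higher by 0.25 (10%) and 2 lower (0.117%), and 132 of the 172 lay on chromosomes 8, 14 and 17. The means were 0.47 for chromosome 8 and 0.25 for chromosome 14, against 0.02 to 0.10 for the other autosomes. The segments were 4 in all: 19 and 80 windows of chromosome 8 at 0.49 and 0.47, all 27 distal windows of chromosome 14 at 0.51 ± 0.08, and the 5 windows of chromosome 17 at 0.51 ± 0.05. The segment of chromosome 17 began and ended at the same windows as against the tissues. That of chromosome 14 began at the same window and ran to the chromosome's last window, while against the tissues it was broken into segments of 21 and 4 windows. Both comparisons use the same knockdown array.

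**Figure D4:**
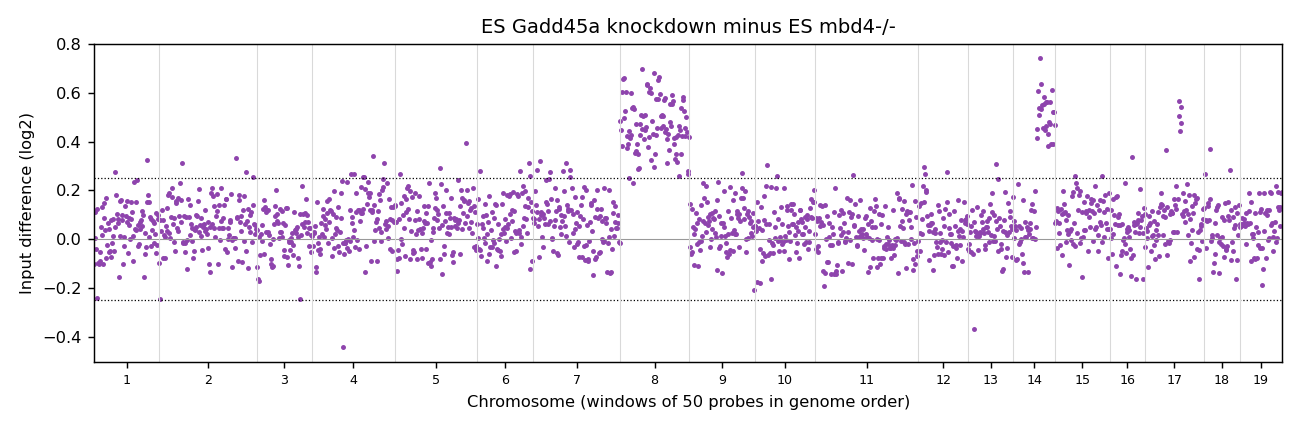
Difference of log2 input signal, Gadd45a knockdown minus ES mbd4-/-, for each window of 50 probes in order along chromosomes 1 to 19. Chromosome 8 stands at 0.47, the end of chromosome 14 at 0.51 and 5 windows of chromosome 17 at 0.51, above the other chromosomes.

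The antibody-bound channel of the same samples was not used to choose any chromosome, but it holds DNA of the same extract on the same array. Relative to each array's median chromosome, the bound difference in ES aid-/- was 0.17, 0.20 and 0.13 on chromosomes 1, 8 and 19, against −0.08 to 0.03 on the other 16. In ES wild type it was 0.14, 0.17 and 0.13 on chromosomes 1, 8 and 11, against −0.04 to 0.03 on the 15 others not called. In ES mbd4-/-, where no chromosome was called, it ran from −0.06 to 0.12. The highest value there was on chromosome 15, whose input stood at only 0.035 over the array's median chromosome. In the knockdown chromosome 8 stood at 0.03 and chromosome 14 at 0.11, within or near the range of the others, −0.07 to 0.07. For the stretches, the end of chromosome 6 was at 0.23 in ES wild type against −0.06 for the rest of it. The knockdown, with an input difference of only 0.07 on that end, was also higher there, at 0.15 against −0.04 for the rest. The end of chromosome 14 was at 0.26 in the knockdown against −0.00 for the rest, and at −0.06 to 0.04 in the other ES arrays. The stretch of chromosome 17 was at 0.37 in the knockdown and at 0.02 to 0.11 in the other ES arrays. That of chromosome 9 was at 0.07 in ES aid-/- but higher in the knockdown, at 0.18, so the bound channel did not set ES aid-/- apart there. In ES aid-/- and ES wild type the bound difference was thus smaller than the input difference on every chromosome called higher.

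**Figure D5:**
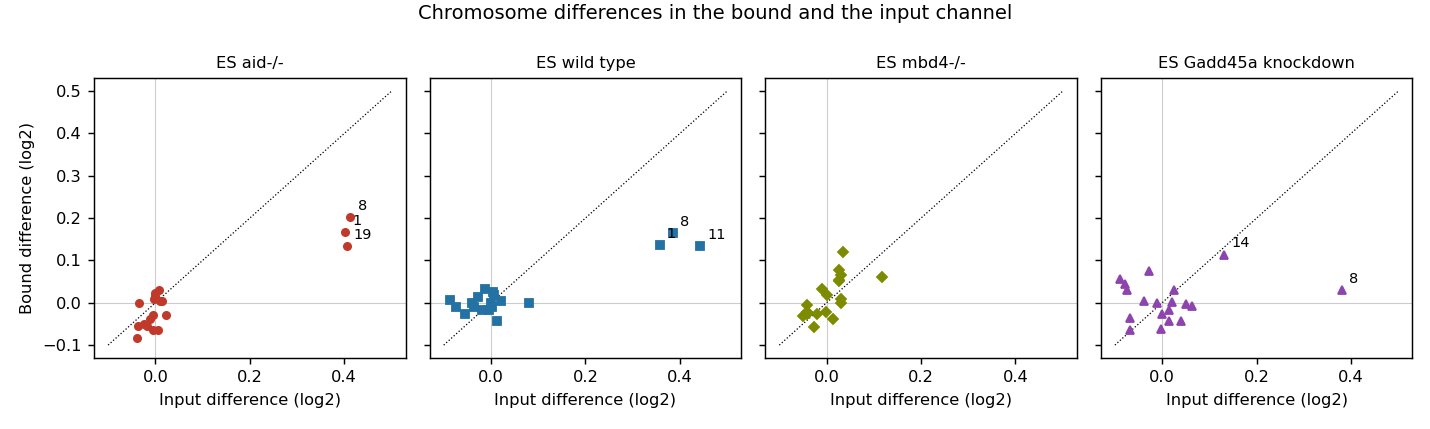
Bound difference against input difference (log2, each relative to the array's median chromosome) for chromosomes 1 to 19 in the 4 ES arrays. The dotted line marks equal values. In the panels of ES aid-/- and ES wild type the chromosomes called higher lie right of all others. They stand at 0.36 to 0.44 on the input axis and 0.13 to 0.20 on the bound axis, below the line. In the knockdown chromosome 8 lies at 0.38 on the input axis and 0.03 on the bound axis, and chromosome 14 at 0.13 and 0.11.

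The ratio of bound over input, the usual measure of methylation on such arrays, has the input as its divisor and was averaged by chromosome. For ES aid-/- minus ES wild type, relative to the median chromosome, the mean log2 ratio was 0.28 on chromosome 11, the highest of 19, and −0.24 on chromosome 19, the lowest. The next largest was 0.08, on chromosome 7. Chromosomes 1 and 8, high in both, did not stand out, and chromosome 1 was at 0.01. In ES mbd4-/- minus wild type chromosomes 1, 8 and 11 stood at 0.27, 0.27 and 0.26. In the knockdown minus wild type chromosomes 1 and 11 stood at 0.35 and 0.25 and chromosome 8 at −0.12. These comparisons share the wild-type array.

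Lists of genes for pluripotency, for growth and survival, and for DNA methylation and demethylation were set against the raised chromosomes and stretches. Of 20 pluripotency genes 11 had probes, of 20 growth and survival genes all 20, and of 21 methylation genes 17. In ES aid-/- 2, 2 and 0 of them lay on a raised chromosome, in ES wild type 3, 7 and 0 with the end of chromosome 6 counted, and in the knockdown 2, 1 and 1 with all of chromosome 14 counted. The chromosomes called higher held 14.9% of the probes in ES aid-/-, 20.1% in ES wild type and 9.3% in the knockdown. The end of chromosome 6 held a further 882 of the 85771 probes. The share of all named genes there was not counted, so these counts only describe where the list genes lie. The share of measured list genes at 0.25 or more, wherever they lie, was 18.2%, 15% and 5.9% in ES aid-/-, against 13.7% of all 11207 named genes. In ES wild type it was 27.3%, 30.0% and 5.9%, against 17.8%. In ES mbd4-/- it was 27.3%, 15% and 17.6%, against 20.4%, and in the knockdown 63.6%, 30.0% and 17.6%, against 30.3%. Lists of 11 to 20 genes move by 5 or more percentage points with 1 gene, so the shares are a description.

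Among pluripotency regulators on raised chromosomes, Klf2 (chromosome 8, 11 probes), a Krüppel-like factor of the naive state, stood at 0.28 ± 0.44 (SD over probes) in ES aid-/-, 0.34 ± 0.41 in ES wild type, 0.16 ± 1.09 in ES mbd4-/- and 0.85 ± 1.05 in the knockdown. Prdm14 (chromosome 1, 4 probes), which represses differentiation and DNA methyltransferase genes, was at 0.28 in ES aid-/- and 0.52 in ES wild type, but also at 0.31 in ES mbd4-/- and 0.71 in the knockdown, where chromosome 1 was not raised. Stat3 (chromosome 11), which carries the signal of the cytokine LIF, was at 0.44 in ES wild type over 3 probes. Klf5 (distal chromosome 14) was at 0.58 ± 0.59 in the knockdown, against 0.08, −0.02 and −0.08 in ES aid-/-, wild type and mbd4-/-. A single gene's mean thus rests on a handful of probes and is much less steady than that of a chromosome.

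Among growth and survival genes, those on chromosome 11 were high in ES wild type: the tumour suppressor Trp53 at 0.74 ± 0.25, the adaptor Grb2 at 0.64, the mitotic survival factor Birc5 at 0.42 and Socs3, an inhibitor of cytokine signalling, at 0.39. The same 4 genes stood at −0.09, 0.29, 0.20 and 0.04 in ES aid-/-. On the end of chromosome 6 the cyclin gene Ccnd2 was at 0.56 in ES wild type (with −0.15 in ES aid-/-, while ES mbd4-/- was at 0.47 and the knockdown at 0.78) over 4 probes. Bcl2 (chromosome 1), an inhibitor of apoptosis, was at 0.35 in ES aid-/- and only 0.06 in ES wild type. Rb1 (distal chromosome 14), a cell cycle inhibitor, was at 0.48 ± 0.32 in the knockdown, against −0.30, −0.17 and −0.28 in ES aid-/-, wild type and mbd4-/-. The one methylation gene on chromosome 14, the base excision repair gene Apex1, lies proximal to the step and stood at −0.76 over 2 probes in the knockdown.

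Short regions were examined after each chromosome's own input difference had been subtracted. A region was called when its mean differed by 1 or more and at least 75% of its probes lay in that direction, by any amount. A call can therefore rest on 1 probe. Of 13439 regions of 3 or more probes, ES aid-/- had 1 higher (0.00744%) and 4 lower (0.0298%). ES wild type had 2 higher (0.0149%) and 1 lower (0.00744%). In ES mbd4-/- there were 54 higher (0.402%) and 127 lower (0.945%) and in the knockdown 146 (1.09%) and 135 (1%). Tissue arrays had 0 to 3 higher and 1 to 5 lower. ES mbd4-/- and the knockdown shared 25 higher regions (46.3% and 17.1% of each list) and 48 lower ones (37.8% and 35.6%). Both lists are set against the same tissue arrays, and both arrays carry the wide spread between probes given above. Examples of the shared regions are Phf10, which encodes a chromatin remodelling subunit (1.93 in ES mbd4-/- and 2.12 in the knockdown), Zfp273 (−2.45 and −2.26) and the lipid phosphatase gene Synj2 (−2.45 and −2.04).

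The lowest region of ES aid-/- lies between Casc1 and Lyrm5 on chromosome 6 (145159318 to 145159783), at −2.09 after subtraction. Its 3 probes stood at −1.59, −2.25 and −2.77 in ES aid-/-, and the region before it, Bcat1, at −0.17. In the bound channel of ES aid-/- the 3 probes stood at 0.68, 0.33 and −2.52, so only the last was low in both channels. The region's input value was −0.40 in ES wild type, −0.98 in ES mbd4-/-, −0.34 in the knockdown and near 0 in aid-/- liver (−0.04). In ES mbd4-/- its probes went different ways, the first at −2.50 and the second at 0.47. The probes are printed because they mark the only region of ES aid-/- called below −2, with CpGs in capitals, at mm9 chr6:145159318-145159368, chr6:145159463-145159508 and chr6:145159739-145159783 in that order. The second matches RefSeq promoters (GRCm38) of Casc1 on the minus strand and of Etfrf1 on the plus strand.
Casc1, first probe: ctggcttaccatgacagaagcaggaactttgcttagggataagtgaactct
Casc1, second probe: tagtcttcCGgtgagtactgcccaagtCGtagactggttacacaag
Lyrm5, last probe: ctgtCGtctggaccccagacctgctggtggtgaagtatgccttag

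The other lower regions of ES aid-/- were 2410127L17Rik (−1.40), EG638695 (−1.09, and −1.82 in ES mbd4-/- and −1.58 in the knockdown) and Pou4f2 (−1.22). Pou4f2, a neuronal transcription factor gene, was as low in aid-/- liver, at −1.18. Its higher region was Prpsap2, at 1.20. In ES wild type Hdhd3 stood at 1.00, against 0.90 in ES aid-/-.

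The highest region of ES wild type, Atp13a1 (chromosome 8, 72315020 to 72315751, 2.06 after subtraction), rests on 1 probe. That probe had an input difference of 10.4 and was the only saturated input spot of the array, so its value is a lower bound, and it was as bright in the bound channel, at 12.8. The other 4 probes of the region stood at 0.17 to 0.51, with a mean of 0.37, close to the rest of chromosome 8. The probe (mm9 chr8:72315020-72315067) stood at 0.49 in ES aid-/-, while ES mbd4-/- was at 1.33 and the knockdown at 2.21, against −0.89 to 0.55 in tissues. It matches the plus strand of the Atp13a1 promoter in RefSeq (GRCm38) and is shown as the spot behind the value.
Atp13a1, saturated probe: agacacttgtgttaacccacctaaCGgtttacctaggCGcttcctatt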

How the data were processed

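Scanner files of 8 two-colour Agilent arrays were used, 1 per group. The deposited files hold the intensity of each spot. Per the file headers, the scans of ES mbd4-/- and the Gadd45a knockdown went through Feature Extraction 10.7.3.1 (Agilent), and the other 6 through 10.9.1.1. The processed Cy3 signal is background-subtracted and scaled, per the file headers, and positions are mm9. The sources used here do not give the authors' own normalisation, and their deposited value table was not used.

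From the 88737 non-control probes of 45 to 60 nucleotides, 326 without a position, 90 on unplaced sequence and 82 marked as outliers were left out. The log2 input signal was centred in 2% bins of probe GC and then on the autosomal median of each array. A further 6844 probes were dim on 1 or more arrays and were kept. Probes were averaged over chromosomes, over windows of 50 probes and over regions of 3 or more probes no more than 500 bp apart. Chromosomes were tested by an exact permutation test with Benjamini-Hochberg adjustment over 19, and windows with limma 3.58.1 in R 4.3.3, which was tested on simulated data. Precision is limited by the number of arrays, and a single line, being 1 array, has no test. Gene names are those in the ES mbd4-/- file. Of the probes, 15821 (17.83%) carry another name in the knockdown's file, but all probes of 44 of 48 measured list genes carry the same name in both. No sequence of the genome was read: probe sequences come from the deposited files, and promoters from RefSeq.

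The samples, thresholds and gene lists were chosen with earlier results of these data known. Genes were named by rule: the targeted genes, list members on a called chromosome or raised stretch, the ends of the segments with the most windows, and the 5 largest regions per direction and array. The split of a chromosome into 2 levels, the 25-probe segments and the comparison of the knockdown with ES mbd4-/- were added after the data were seen. The alternatives tried were other backgrounds, GC corrections, centrings, filters, references, window sizes, thresholds and scan day, and leaving out each array. Some genes are not reported here.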

Additional observations from a re-analysis of the deposited data

Results flagged for a closer look

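Among 40 groups of 4 arrays tested for a single far value (chromosomes 1 to 19 and X, in ES and in tissue arrays), 2 had one. Chance alone flags about 1 group in 20, so 2 of 40 is about the number that chance gives. The autosomal values are the same centred input levels that gave the calls above, so a flag there is no separate support. On chromosome 14 the knockdown's centred log2 input of 0.136 stood far from the other 3 ES arrays, at −0.14 to −0.11. On chromosome X the spleen of the mbd4-/- mouse stood at 0.024, against −0.69 to −0.58 in the other 3 tissue samples.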

How the results depend on the processing

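The called higher chromosomes of ES aid-/- (1, 8 and 19) and of ES wild type (1, 8 and 11) were the same ones under every one of the 24 alternatives run. Some of the 24 could not change these calls and are no check of them. A chromosome's mean does not use windows, so the other window sizes leave it as it is. Leaving out another ES array does so too, since each ES array is set against tissues only. Chromosome 8 of ES aid-/- ranged from 0.17 to 0.41, that of ES wild type from 0.28 to 0.43 and that of the knockdown from 0.35 to 0.62, the distal stretch of chromosome 6 from 0.38 to 0.57 and that of chromosome 14 from 0.36 to 0.65. Without the GC correction, 16 chromosomes were lower in ES aid-/-, 18 were higher in ES mbd4-/- and 19 in the knockdown. Without it but against each array's own median, the higher calls were those of the report. The knockdown had 1 higher chromosome, without chromosome 14, under normexp background, the median over probes, the mbd4-/- reference, thresholds of 0.2 and 0.3, and against the array median. The 1 lower chromosome of ES wild type became 0 under normexp background, no GC correction (with or without the array median), added regional GC, the 2 other centrings, the median over probes, probes above background, the liver or aid-/- reference, thresholds of 0.2 and 0.3, and against the array median. It became 2 with the mbd4-/- reference, 5 at thresholds of 0.1 and 0.2 (with 4 in ES aid-/-), and 0 to 2 with 1 tissue array left out. The group test of windows, 12 higher and 62 lower, was the least steady, and the causes were not tested. It gave 0 and 0 under normexp, no GC correction and each of the 4 smaller references, 0 and 3 centred on 13 chromosomes, 4 and 6 centred on chromosome medians, 7 and 8 with the median over probes, 25 and 129 with probes above background, 3 and 7 in windows of 25 probes, and 178 and 93 with scan day as a block. Leaving out 1 array gave 0 to 110 higher and 0 to 116 lower. At an unadjusted p of 0.05, 145 windows were higher and 273 lower. Normexp on the mean input signal was not run, because 6 files lack that column, and the median signal was used instead. Slide as a block was not run, since it would leave 1 residual degree of freedom. No paired analysis was possible because the labels give no replicate numbers and each group is 1 array.

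Limits are these. Input differences are relative, single lines have no replicate, 1 array per line cannot separate line from labelling or scan, and the reference tissues carry the same 2 deletions as the mutant lines. Windows average 50 probes that cluster in CpG islands, so gaps between islands are not covered.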
